A study of Mus musculus with 12 samples.

Results

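The transcripts described here are those of 42 genes of DNA synthesis, the S phase genes that are commonly used to score the cell cycle of single cells. They were chosen by symbol among the 32286 features of the series, and the symbols of 42 of 42 were found. They lie on 17 chromosomes, with at most 5 on any one. Droplet-based scRNA-seq (Chromium 3' v1) had been performed on the superior mesenteric ganglia (SMG) of 12 mice of the strain 129+Ter/SvJcl, with 1 ganglion preparation per library. Each captured RNA molecule carried a unique molecular identifier (UMI), and values are counts of UMIs. At 3 weeks of age there were 1 wild-type (WT) animal and 10 Th-MYCN+/- animals, called #1 to #10 by the numbers in their labels, and at 6 weeks 1 Th-MYCN+/- animal. Th-MYCN+/- mice are hemizygous for human MYCN under the rat tyrosine hydroxylase promoter, so that the transgene is driven in cells that use this promoter, while the WT mouse lacks it. The 6-week-old mouse had been picked because a macroscopic tumor was seen, and it is not a random animal of its age. The WT and the 6-week-old groups hold 1 mouse each, so that no test was made between conditions.

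A cell copies its genome once per division. Origins are licensed in G1 by loading of the MCM helicase, which is activated at the onset of S phase, and polymerases held on DNA by the PCNA clamp then copy both strands while nucleotides and new histones are supplied. Many of these genes are targets of E2F factors, which the retinoblastoma protein restrains outside the cycle, and neuroblasts of the sympathetic lineage divide before they mature to ganglion neurons that have left the cycle. Human MYCN is known for driving proliferation of such neuroblasts in this mouse line.

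Promoter windows from RefSeq (GRCm38.p6, from 250 bases before to 50 bases after each start) were found for 32 of the 42 genes. They were searched on both strands for the 4 letter forms of the E2F site TTTGGCGC, TTTCCCGC, TTTGCCGC and TTTCGCGC, with overlapping matches counted separately. At least 1 form was present in 14 of the 32 matched genes (43.8%), against 704 of 27025 genes in the whole table (2.6%) and 3 of 47 matched genes of a G2M list (6.38%). It was found in 5 of 7 matched genes of helicase and licensing, 4 of 8 of the fork, 4 of 7 of chromatin, 1 of 2 of cycle control, 0 of 3 of nucleotide supply and 0 of 5 of DNA repair. The box CCAAT, searched likewise, was present in 23 of 32 S phase genes (71.9%), 36 of 47 G2M genes (76.6%) and 41.1% of all genes. Pieces upstream of the RefSeq start are shown for 4 members, as examples from the helicase, the fork and cycle control whose pieces lie outside the annotated gene. They are written 5′ to 3′ on the strand of the gene, from chr8:75109336-75109508 (plus strand) for Mcm5, chr1:128359706-128359835 (minus) for Mcm6, chr1:191575545-191575644 (minus) for Dtl and chrX:93632156-93632313 (minus) for Pola1, and capitals mark the E2F letters.
Mcm5: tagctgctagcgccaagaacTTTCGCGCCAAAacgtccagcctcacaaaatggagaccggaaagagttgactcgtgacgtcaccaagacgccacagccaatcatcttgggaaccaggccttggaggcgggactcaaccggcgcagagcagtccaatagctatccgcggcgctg
Mcm6: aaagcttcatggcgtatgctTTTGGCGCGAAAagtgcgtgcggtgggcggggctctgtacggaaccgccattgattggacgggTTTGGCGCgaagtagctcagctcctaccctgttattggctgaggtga
Dtl: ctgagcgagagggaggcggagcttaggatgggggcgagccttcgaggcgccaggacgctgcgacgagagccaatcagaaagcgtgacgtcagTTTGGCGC
Pola1: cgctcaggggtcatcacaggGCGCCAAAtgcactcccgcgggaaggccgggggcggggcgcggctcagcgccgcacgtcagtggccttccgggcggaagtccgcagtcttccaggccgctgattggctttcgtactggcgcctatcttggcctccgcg
The long runs of capitals in Mcm5 and in the first site of Mcm6 are 2 overlapping forms on opposite strands, and Pola1 carries its form on the strand opposite to the gene. The letters were not tested for binding.

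The libraries held between 1147772 and 6388766 UMIs, and 12088 droplets were kept as cells. The transgene, which checks the labels, had 0 UMIs in the WT cells, where that count (taken as at most 3 UMIs) allows up to 4.28 CPM (UMIs scaled so that those of a sum add to 1000000), and 8.39 to 428 CPM in the cells of the 11 Th-MYCN+/- libraries. Cells were clustered without the 42 genes and other cycle genes, and clusters were named from markers. Neuroblast-like cells (2932) formed 1 cluster whose leading genes were those of mitosis, such as Cdc20 and Ccnb1, and 1 led by Vip and Cartpt. Ganglion-like cells numbered 2744 and Schwann-like cells 2933. A cluster of 2312 cells with a median of 495 UMIs had 7 of 18 neuroblast markers and was left unnamed. The library of #2 stood apart. It held 9893 barcodes above 100 UMIs, 1555 of its 1904 cells were ganglion-like, and its 31 neuroblast-like cells held 26762 UMIs with Schwann markers at 5306 CPM, against 139 to 375 CPM in the other 9 mice. The 21 cells of the WT mouse in the neuroblast-like clusters went against that name, with Schwann markers at 24042 CPM and neuroblast markers at 2263 CPM. In all, 93 barcodes were found in more than 1 library, which concerned 187 cells.

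To ask which cells of the ganglion carry S phase transcripts, UMIs of the 42 genes were summed per mouse and class. In 3-week-old Th-MYCN+/- mice, neuroblast-like cells had a summed level of 4899 ± 533 CPM (SD, n = 10 mice), with a lowest value of 4049, a median of 4941 and a highest of 5602. Ganglion-like cells of the same mice had 390 ± 81.8 CPM, between 288 and 558 with a median of 370. Schwann-like cells, the glia of the ganglion, had 619 ± 126 CPM, between 422 and 815 with a median of 617. Each neuroblast-like sum was thus above each sum of the other large classes. Without #2, neuroblast-like cells had 4904 ± 565 CPM (n = 9). The unnamed cluster of low depth lay with the neuroblast-like cells, at 4982 ± 640 CPM. Endothelial-like cells (1035 ± 545 CPM), macrophage-like cells (577 ± 416), myofibroblast-like cells (773 ± 650 in 9 mice), fibroblast-like cells (743 ± 783 in 9 mice) and NKT-like cells (879 ± 327 in 3 mice) had lower means, and the last 4 rest on 35 to 215 cells of these mice.

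**Figure D1:**
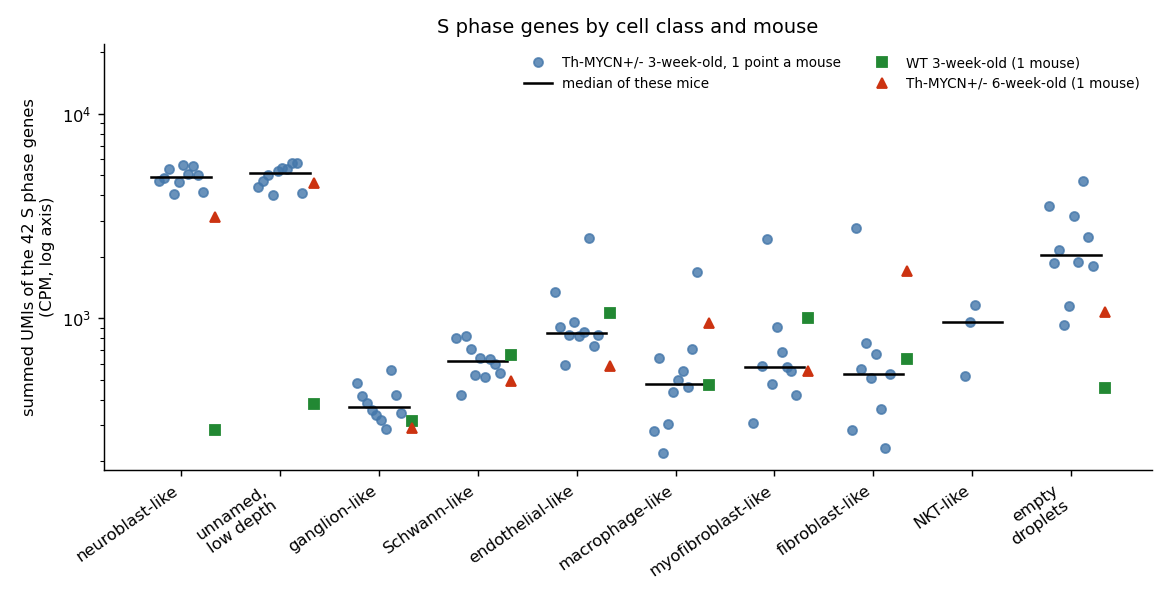
Summed level of the 42 S phase genes (CPM, log axis) by class, with 1 point for each 3-week-old Th-MYCN+/- mouse, a line at their median, and the single WT (square) and 6-week-old (triangle) mouse. Neuroblast-like cells and the unnamed cluster lie near 4941 and 5136 CPM, and ganglion-like cells near 370 CPM. Empty droplets span 927 to 4715 CPM, which overlaps the neuroblast-like range of 4049 to 5602 CPM.

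Empty droplets, taken from barcodes with at most 100 UMIs, give the free RNA that every droplet can receive. Their summed level was 2373 ± 1152 CPM over the 10 mice, between 927 and 4715. Ganglion-like cells lay below the empty droplets of their own library in 12 of 12 libraries, Schwann-like cells in 11 of 12 and endothelial-like cells in 11 of 12. The exception was the WT mouse, with 663 CPM in Schwann-like and 1060 CPM in endothelial-like cells against 457 CPM in its empty droplets. Neuroblast-like cells lay above the empty droplets in 11 of 12 libraries, the exception again being the WT mouse. How much of the low level in ganglion-like and Schwann-like cells is their own expression and how much is free RNA was not tested. Differences from these classes were therefore read only as differences.

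The neuroblast-like cells were then compared with each of the other large classes. Comparisons were made within mice by summing UMIs per mouse and class, with the 10 mice as replicates. They share the neuroblast-like sums and are given side by side. The clusters come from the same cells, and although no member took part in making them, genes that vary with the members did. Without a filter on low counts, 42 of 42 members were higher in neuroblast-like than in ganglion-like cells by edgeR's quasi-likelihood test with Benjamini-Hochberg adjustment, as were 19.1% of the 19093 genes tested. With the filter, 26 members were tested and 26 were higher, against 36.4% of 7175 genes. Only 3 members would have passed that filter on the ganglion-like sums alone, so this count says little by itself. The levels of 24 of 42 members did not overlap between classes in any pair of mice, as was so for 3.87% of all genes. Without a filter, the median log2 fold change of the 42 members was 4.65, and that of all genes tested 0.01. With the filter these were 4.61 and 0.11, with the same limit as the filtered count. Against Schwann-like cells, 42 of 42 were higher without a filter (23.9% of all genes), 26 of 26 were higher with it (37.9%), and 23 of 42 did not overlap (5.24%). Of these 26, 0 would have passed the filter on the Schwann-like sums alone, so that the filtered count again says little. The median was there 3.27 without a filter, and 0.33 for all genes tested. With the filter these were 2.69 and 0.12, with the same limit. Without #2, 35 of 35 members that passed the filter were higher against ganglion-like cells (34.8% of all genes) and 33 of 33 against Schwann-like cells (37.0%), with the same limit on filtered counts.

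**Figure D2:**
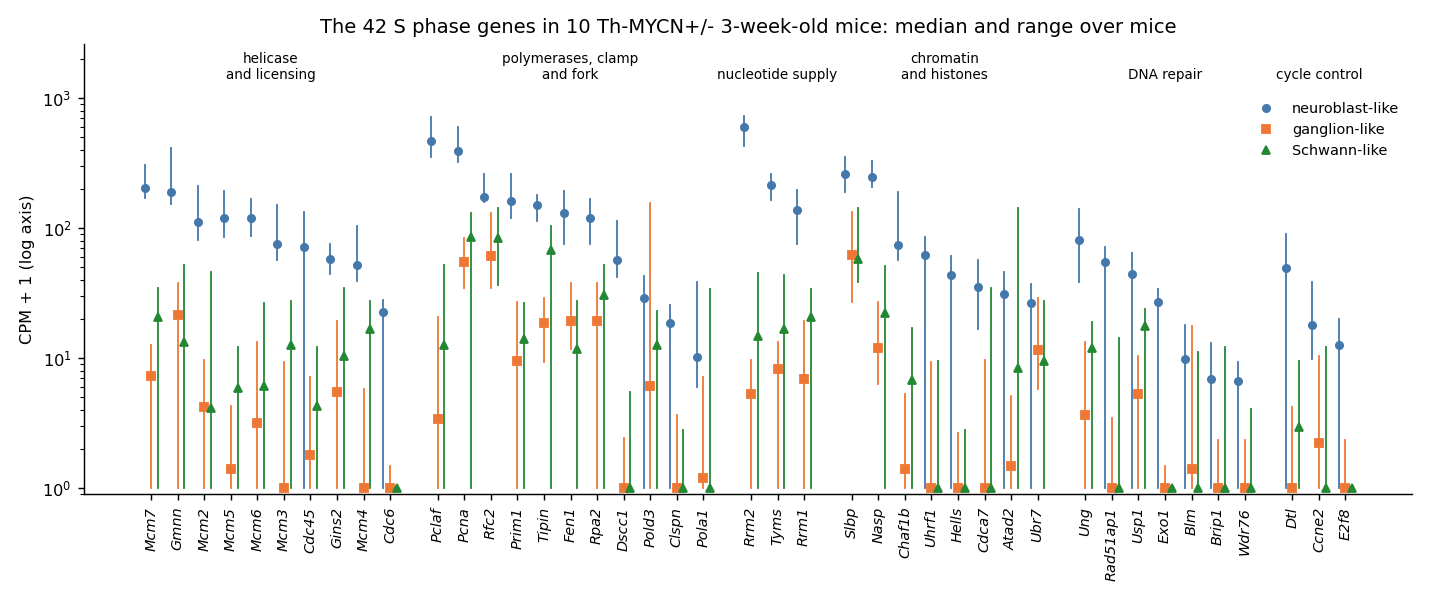
Level of each of the 42 genes (CPM + 1, log axis) in neuroblast-like (circles), ganglion-like (squares) and Schwann-like cells (triangles), grouped by role. Points are medians and bars the full range over 10 Th-MYCN+/- mice at 3 weeks. The ranges of 24 genes do not overlap between neuroblast-like and ganglion-like cells, and bars of neuroblast-like cells that reach 0 end in the 31 cells of #2.

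Among the 10 genes of the replicative helicase and its licensing, Mcm7, a subunit of the MCM ring, gave the most UMIs. Its level in neuroblast-like cells was 169 CPM in the lowest mouse, 202 in the median and 303 in the highest, against 0, 6.25 and 11.6 CPM in ganglion-like cells. The log2 fold change was 4.97 (SE 0.29, adjusted p = 4.62e-11). The other subunits did not overlap either, with log2 fold changes of 5.02 for Mcm2, 6.46 for Mcm3, 5.09 for Mcm4, 5.83 for Mcm5 and 5.53 for Mcm6. Gmnn, or geminin, which blocks a second round of licensing, had 152, 189 and 411 CPM in neuroblast-like cells, against 0, 20.3 and 36.8 in ganglion-like cells (log2 fold change 3.29, SE 0.21, adjusted p = 1.56e-10). Empty droplets held it at 32.2 to 161 CPM. Gins2, a part of the active helicase, had a fold change of similar size (3.25, SE 0.29). Cdc6, which loads the ring, and Cdc45, which activates it, did not pass the filter, and the 31 neuroblast-like cells of #2 held none of either. Cdc6 had 294 UMIs in neuroblast-like cells, 2 in ganglion-like cells and 0 in Schwann-like cells. Against Schwann-like cells, the tested members of this group had log2 fold changes from 1.63 for Mcm4 to 4.27 for Mcm5.

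Genes of the fork held 36.2% of the 63579 UMIs of the list in neuroblast-like cells, the largest share of the 6 role groups, ahead of helicase (22.0%), nucleotide supply (18.8%), chromatin (16.4%), repair (4.94%) and cycle control (1.57%). Pclaf, which binds PCNA, had 350, 465 and 711 CPM (lowest, median, highest mouse) in neuroblast-like cells. In ganglion-like cells it had 0, 2.4 and 19.7 CPM, and in Schwann-like cells 0, 11.6 and 51.4. Its log2 fold changes were 6.44 (SE 0.37, adjusted p = 4.02e-11) and 4.78 (SE 0.23, adjusted p = 2.75e-13). Dscc1, a subunit of an alternative clamp loader, had 789 UMIs there, 5 in ganglion-like cells and 4 in Schwann-like cells, and log2 fold changes of 6.46 (SE 0.36) and 4.65 (SE 0.38). Pcna, the clamp itself, had UMIs in ganglion-like cells of 10 of 10 mice and Schwann-like cells of 9 of 10, while empty droplets held it at 100.2 to 303 CPM. Its level was 321, 392 and 598 CPM in neuroblast-like cells, compared with 33.5, 54.0 and 82.8 in ganglion-like cells and 0, 84.2 and 129 in Schwann-like cells. The classes did not overlap, and the log2 fold changes were 2.83 (SE 0.16, adjusted p = 4.10e-11) and 2.05 (SE 0.17, adjusted p = 1e-09).

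Smaller differences were found in the same role group. Rfc2, a subunit of the clamp loader, had 157, 173 and 262 CPM in neuroblast-like cells, against 33.6, 59.7 and 129 in ganglion-like cells (log2 fold change 1.47, SE 0.16, adjusted p = 1.72e-07). The ranges were apart, and empty droplets held the gene at 62.4 to 224 CPM. Against Schwann-like cells its log2 fold change was 1.08 (SE 0.15). Tipin, which protects stalled forks, had 112, 148 and 178 CPM against 8.38, 17.8 and 28.2 in ganglion-like cells (3.05, SE 0.20), but 0, 67.0 and 102 CPM in Schwann-like cells, where its log2 fold change was 0.82 (SE 0.15, adjusted p = 6.91e-05). With each cell thinned to 500 UMIs that difference was 0.44 and did not pass (adjusted p = 0.128). Pold3, a subunit of polymerase delta, overlapped in both comparisons, with log2 fold changes of 1.60 (SE 0.49, adjusted p = 0.00748) and 1.01 (SE 0.25, adjusted p = 0.00126). It was higher in neuroblast-like cells in 8 and in 9 of the 10 mice. Prim1 (4.27), Fen1 (2.78) and Rpa2 (2.76), which prime strands, remove flaps and cover single strands, did not overlap between neuroblast-like and ganglion-like cells. Clspn and Pola1 passed the filter in neither comparison.

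The 3 genes of nucleotide supply included the member with the most UMIs. Rrm2, the regulated subunit of ribonucleotide reductase, had 427, 603 and 729 CPM in neuroblast-like cells, compared with 0, 4.27 and 8.61 in ganglion-like cells and 0, 13.9 and 44.5 in Schwann-like cells. No mouse overlapped with another between classes. With 6.87 (SE 0.30, adjusted p = 2.44e-12) it had the largest log2 fold change of the tested members against ganglion-like cells, and against Schwann-like cells it had 4.67 (SE 0.19, adjusted p = 3.69e-14). Tyms, which makes thymidylate, had 163, 212 and 262 CPM, against 0, 7.31 and 12.3 in ganglion-like cells (4.87, SE 0.21, adjusted p = 2.44e-12) and 0, 15.7 and 42.8 in Schwann-like cells (3.21, SE 0.19, adjusted p = 9.08e-12). Rrm1, the partner of Rrm2, had log2 fold changes of 4.49 (SE 0.27) and 2.62 (SE 0.20).

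Among the 8 genes of chromatin and histones, Slbp and Nasp had the most UMIs. Slbp, which binds the stem loop of histone mRNAs, had 187, 261 and 349 CPM in neuroblast-like cells against 25.8, 61.6 and 132 in ganglion-like cells (log2 fold change 2.08, SE 0.16, adjusted p = 2.51e-09). Like Rfc2, it had UMIs in ganglion-like and Schwann-like cells of each of the 10 mice, and empty droplets held it at 76.4 to 227 CPM. Nasp, a histone chaperone, had 204, 247 and 329 CPM against 5.34, 10.9 and 25.8 (4.51, SE 0.20, adjusted p = 2.44e-12). Their log2 fold changes against Schwann-like cells were 2.03 (SE 0.15) and 3.03 (SE 0.23). Cdca7, the partner of the remodeler Hells, had 451 UMIs in neuroblast-like against 2 in ganglion-like cells (6.51, SE 0.51, adjusted p = 1.94e-09). Chaf1b, a subunit of the CAF-1 chaperone, had 950 and 19 UMIs (5.24, SE 0.28). The smallest difference of the tested members against ganglion-like cells was that of Ubr7, a ligase that binds chromatin, with 0, 25.5 and 36.2 CPM against 4.80, 10.6 and 28.2 (1.35, SE 0.25, adjusted p = 8.60e-05). Its ranges overlapped, and without the 5% of cells with the most UMIs in each mouse it no longer passed (log2 fold change 0.78, adjusted p = 0.0665). Uhrf1 and Hells, which act on newly copied DNA, had 855 and 597 UMIs in neuroblast-like cells against 5 and 3 in ganglion-like cells, and did not pass the filter. The cells of #2 held none of either.

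Of 7 repair genes, 1 passed the filter against ganglion-like cells. Ung, which removes uracil from DNA, had 37.4, 80.3 and 138 CPM in neuroblast-like cells, compared with 0, 2.65 and 12.3 in ganglion-like cells and 0, 11.03 and 17.8 in Schwann-like cells (4.71, SE 0.31, adjusted p = 2.06e-10, and 2.55, SE 0.27, adjusted p = 5.95e-08). Usp1, which acts on ubiquitinated PCNA, passed the filter only against Schwann-like cells (1.05, SE 0.26, adjusted p = 0.00154), and its ranges overlapped there. Rad51ap1, which acts in DNA repair, had 0, 54.2 and 70.1 CPM, the 0 being #2, with 709 UMIs in neuroblast-like, 7 in ganglion-like and 5 in Schwann-like cells. Exo1, an exonuclease, had 336, 1 and 0 UMIs in these classes. Blm, Brip1 and Wdr76 had at most 120 UMIs each in neuroblast-like cells. None of the 3 cycle control genes passed the filter. Dtl, which marks licensing factors for degradation, had 631 UMIs in neuroblast-like cells, 8 in ganglion-like and 7 in Schwann-like cells, with 0, 48.1 and 89.6 CPM in the neuroblast-like sums. Ccne2, the cyclin E2 that leads into S phase, had 8.90, 17.0 and 37.4 CPM there and 223, 18 and 4 UMIs in these classes. E2f8, a repressor among the E2F factors, had 146, 1 and 0 UMIs.

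Replication genes outside the list were counted for the same comparison with ganglion-like cells. With the filter, 36.4% of all genes tested were higher and 30.8% lower, and filtered counts carry the limit given for the members. Without it, 18 of 20 genes of origins and helicase were higher, against 19.1% of the 19093 genes tested. So were 22 of 23 of polymerases, clamp and fork (1 lower), 9 of 11 of nucleotide supply (1 lower) and 10 of 10 of chromatin. In the list of E2F, RB and G1/S cyclins, 17 of 27 were higher and 4 lower. The counts that follow are with the filter. Of 20 further genes of origins and helicase, 11 were tested and 10 were higher, among them Cdt1 (4.74, SE 0.39), which loads the MCM ring, and Gins1 (3.30, SE 0.26). Of 23 further genes of polymerases, clamp and fork, 17 were tested, 16 were higher and 1 was lower. Rfc4 (4.34, SE 0.21) and Rfc5 (4.00, SE 0.26), the partners of Rfc2 in the clamp loader, exceeded it, while the lower gene was Pold4 (-2.29, SE 0.25, adjusted p = 1.61e-07), a small subunit of polymerase delta, named here after its value was seen. Of 11 further genes of nucleotide supply, 9 of 10 tested were higher, led by Shmt1 (6.44, SE 0.40) and Tk1 (5.34, SE 0.48). All 10 further genes of chromatin were tested and were higher, led by Asf1b (5.44, SE 0.29) and H2afx (4.28, SE 0.24). Among 27 genes of E2F, RB and G1/S cyclins, 11 of 15 tested were higher, led by the cyclin gene Ccna2 (5.88, SE 0.27) and Cdkn2c (4.42, SE 0.28). Of those tested with the filter, 2 were lower, Cdkn1a (-0.75, SE 0.19, adjusted p = 0.00202), which encodes the inhibitor p21, and Ccnd3 (-0.58, SE 0.24, adjusted p = 0.0397). Against Schwann-like cells, Cdkn2c went the other way (-1.38, SE 0.17, adjusted p = 4.21e-07), and 8 of 13 tested genes of this list were higher and 4 lower (37.9% and 31.6% of all genes tested). Without a filter, 15 of the 27 genes of this list were higher there (23.9% of all genes) and 7 lower.

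Within neuroblast-like cells, it was asked whether S phase transcripts go with those of the later cycle. Cells with at least 1000 UMIs were thinned to 1000 and split by their UMIs of 53 G2M genes, none of which is a member. Those with 3 or more were compared with those with 0 in 9 mice, since #2 had too few cells. The parts held 75 to 377 and 9 to 55 cells per mouse, with median depths of 3447 to 6534 and 3428 to 5850 UMIs. Raw counts were summed, so that deep cells weigh more. In #10, the 38 cells with 0 held 417913 UMIs at a median of 5303.5. Cells with many ganglion marker UMIs were not taken out of either part. Without a filter, 41 of 42 members were higher in cells with G2M transcripts (10.7% of all genes), and 31 of 42 did not overlap between parts (2.17%). With the filter, 31 of 32 tested members were higher, against 14.4% of 4825 genes. None of the members (0) would have passed on the cells without G2M UMIs alone, so this count says little either. Without a filter, the median log2 fold change of the 42 members was 2.77, and that of all genes 0.3. With the filter these were 2.33 and 0.01, with the same limit as the filtered count. Rrm2 had 672, 793 and 938 CPM in the lowest, median and highest mouse with G2M transcripts and 0, 26.3 and 90.5 without (4.80, SE 0.27, adjusted p = 1.82e-11). Pclaf had 438, 700 and 948 CPM against 0, 24.8 and 72.3 (4.76, SE 0.28, adjusted p = 5.20e-11). Both were apart in every pair of mice. Uhrf1, which reads hemimethylated DNA, followed (3.74, SE 0.43, adjusted p = 1.23e-06), with 55.5, 80.2 and 104 CPM against 0, 0 and 36.2. The smallest differences were those of Ubr7 (0.60, SE 0.30, adjusted p = 0.146), which did not pass, Rfc2 (1.12, SE 0.17, adjusted p = 3.16e-05) and Slbp (1.51, SE 0.17, adjusted p = 7.33e-07). The other genes with the most UMIs of their roles lay between, with Tyms at 3.03 (SE 0.23), Rad51ap1 at 3.23 (SE 0.39), Gmnn at 2.87 (SE 0.29), Dtl at 2.47 (SE 0.42), Ung at 2.46 (SE 0.34), Pcna at 2.05 (SE 0.16), Nasp at 1.93 (SE 0.22) and Mcm7 at 1.73 (SE 0.19).

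Members differed in where along the G2M range they were high. With cells binned by their G2M UMIs at 1000 UMIs per cell, the list had 1.36 ± 0.60 UMIs per cell at 0 (SD over 9 mice), 2.68 ± 0.95 at 1 to 2, 5.42 ± 0.61 at 3 to 5, 7.24 ± 0.85 at 6 to 10, 6.96 ± 0.52 at 11 to 20 and 4.298 ± 0.583 above 20. S phase transcripts were thus highest in the middle of the range and lower where G2M transcripts were most frequent. Of 30 members with at least 100 thinned UMIs, 18 were highest at 6 to 10, 9 at 11 to 20 and 3 at 3 to 5, namely Ung, Mcm3 and Gins2. Pooled over the mice, Ung had 26.6 UMIs per 100 cells at 3 to 5, 18.2 at 6 to 10, 3.45 at 11 to 20 and 0.44 above 20. It was higher at 3 to 5 than at 11 to 20 in 9 of 9 mice. Rrm2 had 41.5 UMIs per 100 cells at 3 to 5, 86.4 at 6 to 10, 99.5 at 11 to 20 and 52.1 above 20, and it was higher at 11 to 20 than at 3 to 5 in 9 of 9 mice. The same held for Pclaf and Pcna. Mcm3 was higher at 3 to 5 than at 11 to 20 in 8 of 9 mice. Mcm6 had 18.5, 23.5 and 12.2 UMIs per 100 cells in the bins from 3 to 20. These orders are a description, since bins and members come from the same cells.

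**Figure D3:**
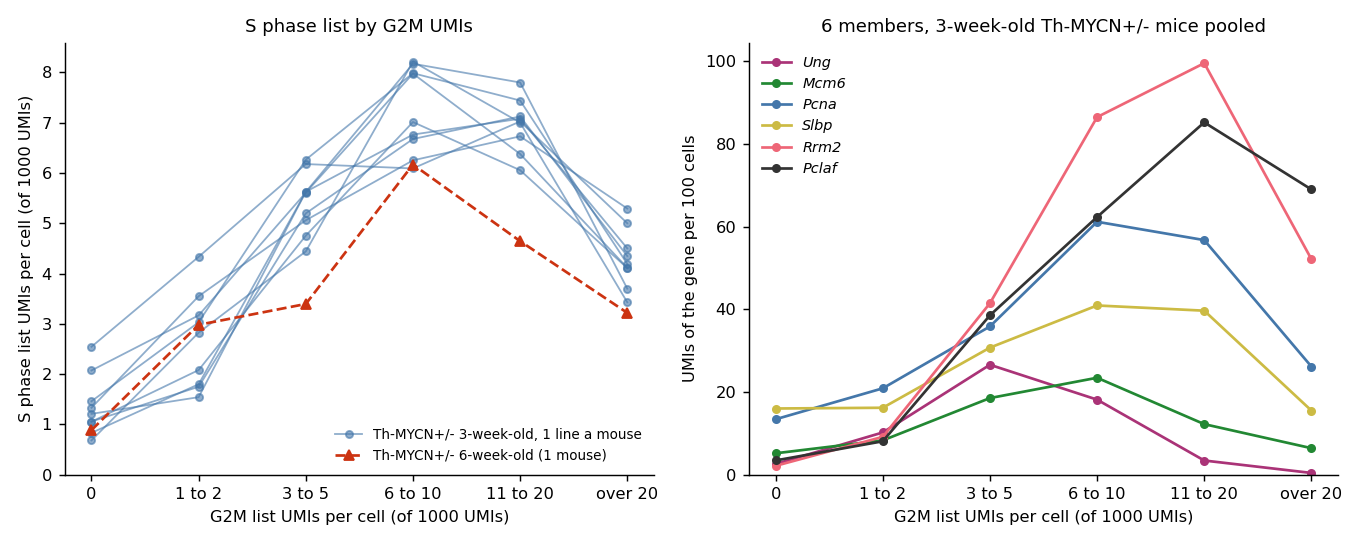
Left, UMIs of the 42 S phase genes per neuroblast-like cell thinned to 1000 UMIs, by the cell's UMIs of the G2M list, with 1 line for each of 9 Th-MYCN+/- mice at 3 weeks and a dashed line for the 6-week-old mouse. Right, UMIs per 100 cells of 6 members over the cells of all 10 mice pooled. Ung is highest at 3 to 5 G2M UMIs and Rrm2 and Pclaf at 11 to 20.

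The transgene was then used to split the same cells. Neuroblast-like cells with at least 1 H-MYCN UMI among 1000 were compared with those in which none was drawn, in 9 mice with 21 to 155 and 83 to 416 cells per part. Median depths of the parts lay between 3418 and 7735 UMIs. Of 5883 genes, 8 were called (0.136%), of which 1, the transgene itself, was higher. Among 35 members tested, 0 were called by edgeR's quasi-likelihood test, while 2 had an unadjusted p under 0.05. DESeq2 likewise called 0 (0.187% of all genes), with 2 at that level. Without a filter, 0 of 42 were called by edgeR (1.93% of all genes) and 3 had an unadjusted p under 0.05. Those 2 members were Gins2, with 29.3, 63.8 and 130 CPM in cells with the transgene UMI and 37.2, 48.5 and 66.3 without (0.47, SE 0.18, adjusted p = 0.436), and Rpa2 (0.46, SE 0.17, adjusted p = 0.434). Each was higher in 7 of 9 mice, and 0 of 42 members had each sum with the UMI above each sum without (0.00560% of all genes). Next came Exo1 (0.25, SE 0.25). The most negative values were those of Slbp (-0.21, SE 0.13, adjusted p = 0.661), Fen1 (-0.15, SE 0.11) and Tyms (-0.11, SE 0.10). Rrm2 had 420, 542 and 836 CPM with the transgene UMI and 423, 614 and 786 without (-0.01, SE 0.11, adjusted p = 1.00), and Pclaf 304, 526 and 669 against 342, 429 and 727 (0.05, SE 0.12). An interval of 2 SE on either side ran from -0.23 to 0.21 for Rrm2, from -0.30 to 0.23 for Pcna and from -0.03 to 0.44 for Mcm7. A miss of the threshold does not show equality, and a cell with no transgene UMI drawn at this depth can still hold the transcript. In simulated counts of this design, 92.9% of the tested genes changed by 1 on the log2 scale were recovered. Smaller changes, such as those of the members here, were not simulated, nor were parts mixed by transgene transcripts that were not drawn. The simulation therefore does not bear on differences of the size seen here.

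**Figure D4:**
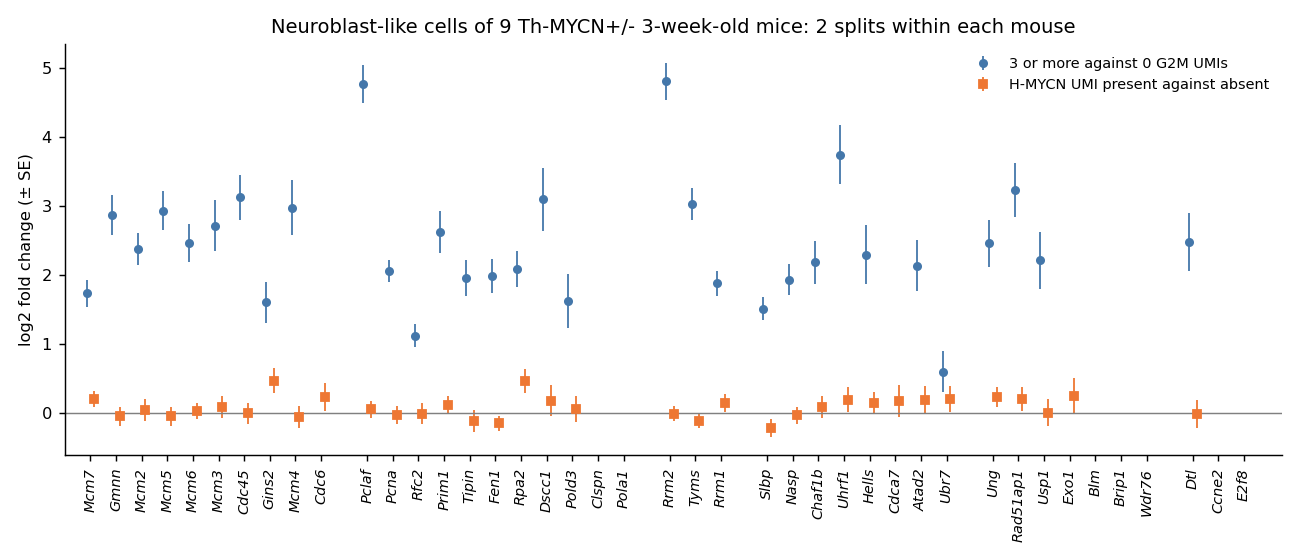
Log2 fold change (± SE) of each tested member within neuroblast-like cells of 9 Th-MYCN+/- mice at 3 weeks, between cells with 3 or more and with 0 G2M UMIs (circles) and between cells with and without an H-MYCN UMI (squares). The circles range from 0.60 to 4.80, and the squares from -0.21 to 0.47. Genes without a point did not pass the filter.

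As a share of cells, 63.1% ± 6.15 of neuroblast-like cells thinned to 1000 UMIs had at least 3 UMIs of the list (SD, n = 10 mice, between 55.2% and 75.0%). The highest value is that of #2, with 8 cells. Without #2 the share was 61.8% ± 4.78 (n = 9, between 55.2% and 70.9%). Ganglion-like cells had 0.67% ± 0.89, and Schwann-like cells 4.84% ± 3.12 in 9 mice. These shares leave out cells under 1000 UMIs. Kept were 2576 neuroblast-like cells (77 left out), 1443 ganglion-like cells (1079 left out) and 1085 Schwann-like cells (1138 left out). At least 1 UMI was found in 86.4% ± 5.71 of neuroblast-like and 26.1% ± 6.89 of ganglion-like cells. What part of these shares comes from free RNA was not tested, and only the share with 3 is read here. Before thinning, the median depth per mouse was 1262 to 5923 UMIs in the neuroblast-like cells used and 1513 to 11490 in the ganglion-like cells. Without thinning, the shares with 3 or more were 85.5% and 22.1%. No gap stood at the limit, since 297 neuroblast-like cells had 2 and 272 had 3 UMIs of the list, with a median of 4 and a highest value of 34. Together with the G2M list, 54.2% ± 3.93 of neuroblast-like cells had 3 or more UMIs of both lists (n = 9). A further 19.1% ± 1.21 had 3 or more of the G2M list and under 3 of the S phase list. Of those with 3 or more of the S phase list, 6.26% ± 1.55 of all cells had 1 to 2 UMIs of the G2M list and 1.32% ± 0.59 had 0.

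Within the neuroblast-like class, the list was lower in cells with more ganglion markers such as Npy, Dbh and Th. At 1000 UMIs per cell, it had 5.64 ± 0.74 UMIs per cell where no ganglion marker UMI was drawn (SD, n = 9 mice), 5.31 ± 0.32 at 1 to 2, 4.33 ± 0.74 at 3 to 5, 2.85 ± 1.24 at 6 to 10 (n = 7) and 0.83 ± 0.45 above 10 (n = 5). The last bin held 59 cells, with median depths per mouse of 6592 to 35810 UMIs before thinning, against 3000 to 5834 at 6 to 10. The deepest were the 10 cells of #4 (35810 UMIs) and the 20 cells of #10 (31580 UMIs). The G2M list went the same way, from 11.8 ± 1.05 to 1.85 ± 1.41 UMIs per cell. Whether cells of the last bin were doublets, or ganglion neurons placed in this class, was not tested, so the last value may not describe neuroblasts.

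Across conditions, ganglion-like cells had a summed level of 314 CPM in the WT mouse (95% Poisson interval 257 to 379) and 291 CPM in the 6-week-old mouse (258 to 326), both within the 288 to 558 CPM of the 3-week-old Th-MYCN+/- mice. Schwann-like cells had 663 CPM (563 to 776) in the WT and 496 CPM (435 to 562) in the 6-week-old mouse, both within the range of 422 to 815. The lower end is #2, with 15 cells and 3 list UMIs, and without it the range was 516 to 815, so that the 6-week-old mouse lay below it. Intervals cover counting error only. The 21 WT cells in the neuroblast-like clusters held 2 list UMIs of 7071, or 283 CPM (34.3 to 1022), and a comparison with neuroblast-like cells of the other mice was not made because of their markers. Empty droplets of the WT mouse held 457 CPM of the list, below each of the other 11 libraries. In WT ganglion-like cells, Pcna had 47.4 CPM (27.1 to 76.9), Rfc2 65.1 CPM (40.8 to 98.6) and Slbp 59.2 CPM (36.2 to 91.4), each between the lowest and highest Th-MYCN+/- mouse of that age, while Rrm2 and Mcm7 had 0 UMIs of 337929, which by the same limit of 3 UMIs allows up to 8.88 CPM.

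At 6 weeks the summed level in neuroblast-like cells was 3131 CPM (95% Poisson interval 3059 to 3204), below the lowest 3-week-old mouse at 4049. Of 40 members with at least 100 UMIs, 17 lay below the range of the 10 mice (7.16% of 9009 genes did) and 0 above it (8.26%). Without #2 in the range, 27 lay below (16.8%) and 0 above (10.7%). The lower level was not particular to the S phase genes. Of the 53 G2M genes, 15 lay below the range of the 10 mice (28.3%) and 0 above. Without #2, 35 of the G2M genes lay below (66.0%, against 67.5% of the members) and 0 above. Rrm2 had 285 CPM (264 to 308) against 427 to 729, Pcna 239 (219 to 259) against 321 to 598, and Mcm7 129 (114 to 144) against 169 to 303. Gmnn, Slbp, Nasp, Tyms and Pclaf were below the range as well, while Ung (69.5 CPM against 37.4 to 138), Dtl and Ccne2 were within it, and Gins2, Hells, Ubr7 and Pola1 had at least 0.87 times the median of the 3-week-old mice. Brip1 and Wdr76 had fewer UMIs and were not counted.

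**Figure D5:**
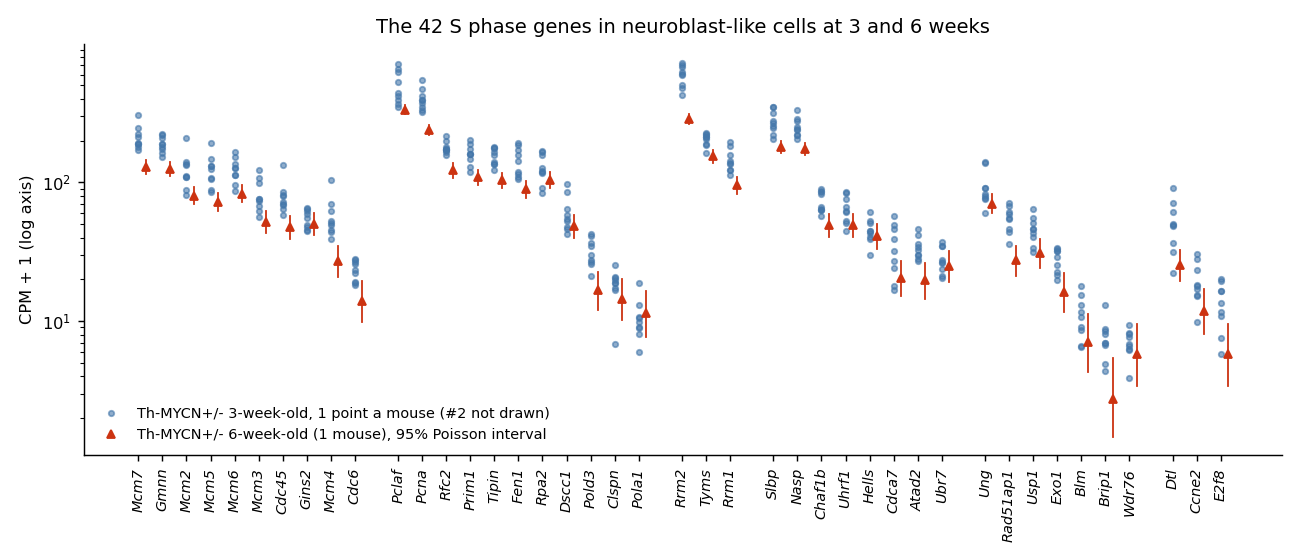
Level of the 42 genes (CPM + 1, log axis) in neuroblast-like cells of 9 Th-MYCN+/- mice at 3 weeks (1 point each, #2 not drawn) and of the single mouse at 6 weeks (triangle with 95% Poisson interval). With #2 included in the range, 17 of 40 counted members lie below it in the 6-week-old mouse and 0 above.

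Markers of ganglion neurons were higher in the summed neuroblast-like class of this 1 mouse. Their 15 genes summed to 13380 CPM in the neuroblast-like class at 6 weeks, against 1420 to 9385 CPM at 3 weeks. Of its 258 neuroblast-like cells, 71 were in the cluster led by mitosis genes, where the list had 2143 CPM and ganglion markers 25305 CPM. Both lay outside the 3-week-old range of that cluster, which was 2967 to 6523 CPM for the list and 1183 to 13294 CPM for the markers. The other 187 were in the cluster led by Vip and Cartpt, where the list had 3913 CPM, within the 1825 to 5130 CPM of the 3-week-old mice. Ganglion markers were there at 3942 CPM, within 1913 to 12752 CPM. Sums weigh cells by their UMIs. In this mouse, 15 neuroblast-like cells had over 10 ganglion marker UMIs at 1000 UMIs per cell. Their median depth was 45780 UMIs, against 6857.5 in the class, and they had 0.33 list UMIs per cell after thinning. Which cluster held them, and whether they were neuroblasts, was not tested. Weighing cells equally at 1000 UMIs raised the 6-week-old level to 3831 CPM, still below the 4425 to 5709 CPM of the 10 mice. Without the 5% of cells with the most UMIs it was 4292 CPM, within the range of 3430 (#2) to 5965 CPM, though below the 4689 CPM of the lowest of the other 9 mice. The number of members below the range of 10 mice was then 4 without these cells (5.42% of all genes) and 5 with thinning (2.94%), and without #2 it was 9 (12.3%) and 13 (10.4%). Above the range lay 0 without the top cells (4.63%, and 6.06% without #2) and 2 with thinning (6.35%, and 7.88% without #2). Of the 53 G2M genes, 1 lay below the range of 10 mice without the top cells and 1 with thinning. Without #2 these numbers were 7 and 9. Among cells in which no ganglion marker UMI was drawn, the 6-week-old mouse had 4.23 list UMIs per cell (80 cells) against 4.87 to 6.91 at 3 weeks, and with 1 to 2 such UMIs 4.26 (129 cells) against 4.54 to 5.60. The share of cells with at least 3 list UMIs was 55.5% (exact Clopper-Pearson interval 49.2% to 61.7%), within the range of 55.2% to 75.0%. Without #2 that range was 55.2% to 70.9%. With 1 mouse at 6 weeks, age, the choice of an animal with a tumor and the single library cannot be told apart.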

How the data were processed

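The authors sequenced 12 Chromium 3' v1 libraries and deposited raw UMI counts per gene and barcode, made with Cell Ranger against mm10 with the human MYCN transgene added, per the labels and the study's methods. Which annotation release was counted is not stated in those sources. Droplets were called as cells with an EmptyDrops procedure (false discovery rate 0.01, empty droplets at most 100 UMIs, 10000 draws) and kept with at least 200 genes, at most 10% mitochondrial and 60% ribosomal UMIs. No doublet caller was run. Cells were clustered with Seurat 5.3.0 and sctransform 0.4.2 (30 components, resolution 0.5) without the members, the G2M list and the other replication lists. UMIs were summed per mouse and class with at least 5 cells and tested in edgeR 4.0.16 by its quasi-likelihood test with TMM and the mouse as a block, since both sums of a mouse come from 1 library, with Benjamini-Hochberg adjustment over all genes and a threshold of 0.05. Same-mouse sums deviated together with correlations from -0.02 to 0.27 against ganglion-like and 0.05 to 0.20 against Schwann-like cells, and 0.06 to 0.41 and 0.13 to 0.53 in the splits by G2M and transgene UMIs. DESeq2 1.42.0 was an alternative. Where stated, cells were thinned to 1000 UMIs. Libraries held 1147772 to 6388766 UMIs. Intervals are 95% Poisson or Clopper-Pearson and cover counting error only. The labels give no batch. The members and lists were chosen with earlier results of these data known. Members were named with values where they had the most UMIs of their role (2 per role) or the 3 largest or smallest fold changes of a comparison, and 2 genes per other list by absolute fold change. The fits were tested on simulated data. Positions are from GENCODE vM21 (GRCm38).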

Additional observations from a re-analysis of the deposited data

Results flagged for a closer look

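In 11 of 56 groups of mice that were examined, the highest or lowest 3-week-old Th-MYCN+/- mouse stood apart from the rest by Dixon's criterion, which chance meets in about 1 in 20 groups. Summed levels of the 42 genes stood apart in endothelial-like cells of #8 (2485 CPM, next 1342), macrophage-like cells of #10 (1676 CPM, next 704), myofibroblast-like cells of #4 (2446 CPM, next 911) and fibroblast-like cells of #2 (2781 CPM, next 753). In the 31 neuroblast-like cells of #2, repair genes were at 37.4 CPM (next 196), Rad51ap1 at 0 CPM (next 34.8) and Gmnn at 411 CPM (next 224). Slbp was at 140.5 CPM in Schwann-like cells of #2, where 1 UMI is worth that value. In #1, Pclaf was at 51.4 CPM in Schwann-like cells (next 26.7) and Nasp at 25.8 CPM in ganglion-like cells (next 12.8). Ccne2 was at 11.1 CPM in Schwann-like cells of #8. The causes were not tested.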

How the results depend on the processing

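No fold change of a named gene reversed. Without a filter, members called higher numbered 42 against ganglion-like and 42 against Schwann-like cells, and with counts thinned to 500 UMIs 6 of 6 tested (435 of 1244 genes) and 7 of 9 (621 of 1666 genes). In the split by G2M UMIs, thinned counts gave 10 of 10 (165 of 1195 genes). For the 6-week-old mouse, the summed level in neuroblast-like cells was 3038 CPM at resolution 1.0, 3831 with thinning and 4292 without the 5% of cells with the most UMIs. In ganglion-like cells it was 326.5, 387.1 and 363.8 CPM, and in the WT mouse 413.4 without these cells. Shares of neuroblast-like cells with at least 1 and 3 UMIs were 74.7% and 38.1% at 500 UMIs and 94.3% and 85.5% without thinning, and those of ganglion-like cells 45.0% and 22.1% without thinning. Members below the 3-week-old range in the 6-week-old mouse were 27 without #2, 4 without the top cells and 5 with thinning. Without the replicate block 26, 26, 31 and 0 members were called in the 4 comparisons, as with it and with DESeq2. The mouse #2 enters neither split, and cells without a G2M UMI left no member to test in the split by transgene. The cause of these shifts was not tested.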
